A study of Mus musculus with 8 samples.

Results

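The peaks described here are the N6-methyladenosine (m6A) peaks of the mouse embryonic stem cell transcripts with the most listed peaks, 10 or more in the list called from control cells. Of the 13110 Ensembl gene identifiers with a peak in either list, 56 met that rule. They carry 681 of the 25815 control peaks (2.64%) and 647 of the 27612 peaks called after doxycycline (2.34%). They were chosen by the control peak number, so that number is given as a description. The cells carried a doxycycline (Dox) inducible knockdown of Setd2 and grew without feeder cells, as spheres in 2i medium. That medium held the MEK inhibitor PD0325901 at 1 µM, the GSK3 inhibitor CHIR99021 at 3 µM and leukemia inhibitory factor at 1000 U/ml. Untreated cells formed the control and the others received 1 µg/ml Dox for 4 days. Each condition had 2 m6A immunoprecipitates (IP) and 2 inputs, 8 libraries in all, and nothing in the labels says whether these came from separate cultures or which clone they came from. No Dox-treated cells without the knockdown were among them, so Dox itself and the knockdown cannot be told apart. Each deposited list pools the 4 libraries of its condition. Replicate spread and read depth are therefore unknown, and no difference between the lists was tested. All 8 markers of naive stem cells looked for (Pou5f1, Sox2, Nanog and others) had a peak in both lists, as had 3 of 6 fibroblast, 1 (control) and 0 (Dox) of 4 primitive endoderm and 4 and 3 of 4 neural markers, which shows detection and not level.

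m6A is written on nascent messenger RNA by the METTL3-METTL14 complex, mostly in a short consensus with the core GGAC, and is read by YTH-domain proteins that govern splicing, translation and decay. It gathers in long internal exons and around stop codons, so a transcript with very long exons can hold many sites. SETD2 trimethylates lysine 36 of histone H3 along transcribed genes, and METTL14 has been reported to bind that mark. A peak is a run of exonic windows in which IP reads exceed input reads. It can cross introns, and its width counts exonic nucleotides.

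The sequences at hand for these genes are windows around annotated transcription start sites, so they show only bases at starts that a peak covered. RefSeq windows (GRCm38.p6, the assembly of mm10) matched 48 of the 56, with 67 start sites. A peak of either list covered part of the first 50 transcribed bases at 20 start sites of 16 genes, 18 under control and 13 under Dox peaks, 11 under both. The following 30-base stretches are the 6 in which a GGAC lies under a peak, written 5′ to 3′ on the transcribed strand with each GGAC in capitals.
Gtf3c1, chr7:125707649-125707678, minus strand: catGGACgcgctcgagtcgttgttGGACga
Tanc1, chr2:59646781-59646810, plus strand: gggcacagaggaaGGACaggagagagagct
Trrap, chr5:144768794-144768823, plus strand: cGGACccgatggaGGACggcgggctgtggg
Sipa1l1, chr12:82170021-82170050, plus strand: gcgcgcGGACgacgcgcccgGGACgcgcgg
Sipa1l1, chr12:82311354-82311383, plus strand: atgtcattagtgtGGACgctgctgtcttaa
Sptbn1, chr11:30219734-30219763, minus strand: aagtaactgatgtGGACaagcagctgagac
The Gtf3c1 stretch, at the start of the gene for the DNA-binding subunit of the RNA polymerase III factor TFIIIC, lay under a control peak enriched 5.10-fold (IP over input) at a log10 FDR of -13.0, and under a Dox peak of 3.80 and -7.40. At the first Sipa1l1 start the folds were 3.28 in the control and 3.12 in the Dox list, at Tanc1 3.94 and 4.12, and at Sptbn1 (a spectrin) 3.23 and 3.62. These peaks were weaker, with log10 FDRs of -4.08 and -3.87, -3.07 and -3.64, and -2.34 and -2.32 in the same order. The Trrap stretch lay under a Dox peak alone, with a fold of 7.05 at a log10 FDR of -6.61. At the second Sipa1l1 start the control peak (fold 2.73) began at 82311393, past the stretch, while the Dox peak (fold 4.46) began at 82311363, within it. GGAC occurred in the 50 transcribed bases of 17 of the 67 start sites (25.4%) and of 18.9% of all 32851 start sites in the reference, against 17.4% of all for GTCC, the same letters on the other strand. Some of these peaks also cover exons upstream of the printed start, so the stretch need not be the 5′ end of the transcript under the peak. The Tanc1 peaks began at 59630208 (control) and 59630238 (Dox), and the Sptbn1 control peak, on the minus strand, reached back to 30267023. A match is a string of letters and no mapped site, and the internal exons that hold most peaks are not in these windows.

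The 56 identifiers lie on 17 chromosomes, 30 on the plus strand, and 54 received a gene symbol. Dst, a spectraplakin that ties intermediate filaments to actin and microtubules, had 35 control peaks, the most of all. The giant scaffold Ahnak followed with 20, the histone H3 lysine 4 methyltransferase Kmt2d and the homeobox factor Zfhx3 with 17 each, and the microtubule-associated Tacc2 with 16. The atypical cadherin Fat1, the Golgi tether Golgb1 (giantin) and the nuclear envelope protein Syne2 (nesprin-2) had 15 each, and the dynein heavy chain Dync1h1 had 14. From there the numbers ran down to the threshold, with 11 identifiers at 12 peaks, 10 at 11 and 21 at 10.

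Gene lists by function, drawn up with earlier results of these data known, were set beside the 56. Over all identifiers, 56 of 13110 met the rule. The list of cytoskeleton, adhesion and motor genes held 12 of them among its 29 genes with a peak in either list: Dst, Ahnak, Fat1, Dync1h1, Macf1, Map1a, Plec, Tln1, Celsr1, Celsr3, Flna and Sptbn1. Of 39 chromatin remodelers and coactivators 5 were among them, with Bptf, Trrap, Bod1l and Chd4, and of 24 ubiquitin ligases and proteases 3, namely Rnf213, Ubr4 and Huwe1. Of 33 histone methylation enzymes 2 were among them, Kmt2d and Setd2. Spen was the only one from 23 Mediator and transcription genes and Mki67 the only one from 25 genes of replication and repair. None came from the 5 lists of Polycomb and DNA methylation (21 genes with a peak), RNA processing (39), centrosome and spindle (22), naive pluripotency (32) or signalling (38). These counts describe the lists and were not tested. Gene length was not taken into account, and a high count can follow from how a list was chosen.

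Genes with 10 or more control peaks were long. The median gene interval, introns included, was 91.7 kb (quartiles 47.8 and 160 kb, n = 54), against 23.3 kb for all genes with a symbol and a control peak and 47.2 kb for those with 5 to 9 control peaks. The longest was Zfhx3 at 682 kb, then the polarity gene Pard3 at 549 kb and Dst at 401 kb. The shortest was the zinc finger gene Zfp646 at 9.08 kb, then the fatty acid synthase gene Fasn at 19.2 kb and the microtubule-associated Map1a at 21.2 kb. Of 2368 genes under 10 kb, 1 had 10 or more control peaks (0.0422%), as had 7 of 3284 from 10 to 30 kb (0.213%), 23 of 2767 from 30 to 100 kb (0.831%), 19 of 1001 from 100 to 300 kb (1.90%) and 4 of 189 at 300 kb or more (2.12%). The median control peak number was 2 in every one of these length classes.

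**Figure D1:**
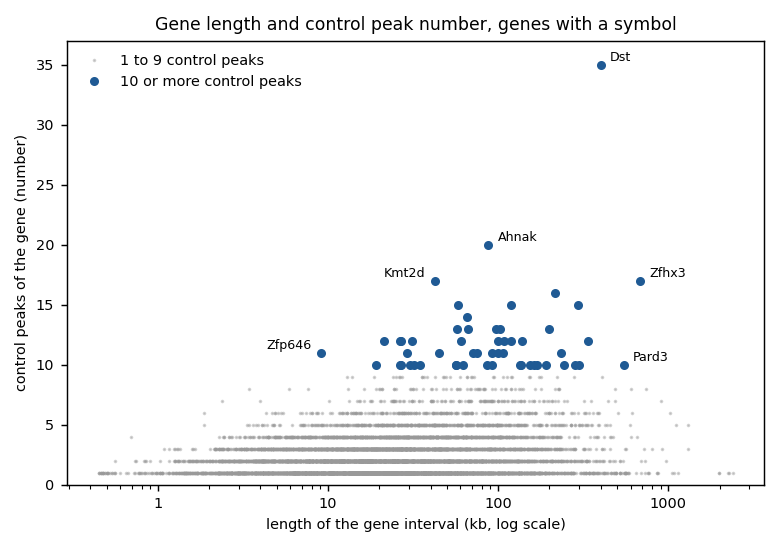
Control peak number (vertical axis) against the length of the gene interval in kb (horizontal, log scale) for genes with a symbol and a control peak; each point is a gene. The genes with 10 or more peaks (large points) run from 9.08 kb (Zfp646) to 682 kb (Zfhx3), and Dst stands highest at 35 peaks.

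Neighbouring control peaks of these genes were a median of 2.45 kb apart on the genome, midpoint to midpoint (622 distances, 95% interval of the median 1.99 to 2.90), with quartiles of 820 nt and 7.90 kb. In the Dox list the median was 2.55 kb. Genes with 5 to 9 control peaks had a median of 2.87 kb in the control list and those with 2 to 4 one of 3.88 kb. In the Dox list these 2 classes had medians of 3.31 and 3.29 kb. More peaks in a gene can lie closer together, so a shorter spacing can follow from the rule. Distances mix exons and introns: 191 were under 1000 nt (30.7%) and 131 over 10 kb (21.1%). For genes with 5 to 9 control peaks these shares were 31.5% and 24.6%. The median gap from the end of a peak to the start of the next was 929 nt.

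The spacing set the named genes apart from each other. In Ahnak, which holds most of its coding sequence in a single giant exon, the 20 peaks lay within chr19:8989344-9018231 and 12 of 19 distances were under 1000 nt (median 794 nt, longest 2150 nt). Golgb1 (median 442 nt), Zfp646 (718 nt), Zfhx3 (758 nt), Map1a (764 nt) and Tacc2 (884 nt) also had medians under 1000 nt. Zfhx3 nevertheless had a stretch of 114 kb without a midpoint and Tacc2 of 46.8 kb. Medians under 1000 nt were also found in Arhgef17 (636 nt), Ssh1 (794 nt), Bod1l (825 nt), Celsr1 (965 nt) and ENSMUSG00000075585.3 (365.5 nt). Among genes with wide spacing, the median was 18.2 kb in Pard3, 13.6 kb in Tanc1 and 12.4 kb in the collagen gene Col5a1. The longest stretch between neighbours was 307 kb, in Pard3. From first to last midpoint the control peaks spanned a median of 89.0% of the gene interval, from 20.9% in Ahnak to 123% in Sugp2, whose listed peaks run past its RefSeq interval.

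Few peaks of these genes lay at the gene ends. Of the 655 control peaks placed on genes of at least 3000 nt, 19 (2.90%) had their midpoint at the 5′ end (up to 500 nt away), 31 (4.73%) at the 3′ end (up to 1000 nt away) and 605 (92.4%) between, against 13.4%, 13.9% and 72.7% for all other genes. In the Dox list the numbers were 15 (2.38%), 29 (4.60%) and 586 (93.0%) of 630, against 7.89%, 15.5% and 76.6% for all other genes. Of the 54 genes, 18 had a control peak at the 5′ end, 27 at the 3′ end and 9 at both. Genes elsewhere were not counted in this way. With gene length cut into 10 equal stretches, the last held 157 control peaks (24.0%) and the first 44 (6.72%), where in other genes they held 29.3% and 19.1%. A gene with many peaks has more of them to place between its ends, so such shares can follow from the rule.

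The Dox list held a median of 11 peaks per gene, as did the control list, with a range of 5 to 33. Of the 56, 31 had fewer Dox than control peaks, 9 as many and 16 more. Among all 6506 identifiers with 2 or more control peaks, 36.9% had fewer Dox peaks and 25.7% more. Of the 905 with 5 to 9 control peaks, 477 had fewer and 206 more. Since a high control number chose the 56, a lower Dox number can follow from the choice alone. Chosen the other way, by 10 or more Dox peaks, 62 identifiers qualified, and 44 of them had more Dox than control peaks and 9 fewer. In 36 of the 56 the lists differed by at most 2 peaks, a count not made for other genes. The largest excesses of control peaks were 5 each, in Gtf3c1 (13 and 8), Plec (12 and 7) and Ssh1 (10 and 5). The largest excesses of Dox peaks were 15 in Ahnak2 (10 and 25) and 11 in Macf1 (12 and 23), then 4 each in Ubr4 (12 and 16) and Celsr1 (10 and 14).

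**Figure D2:**
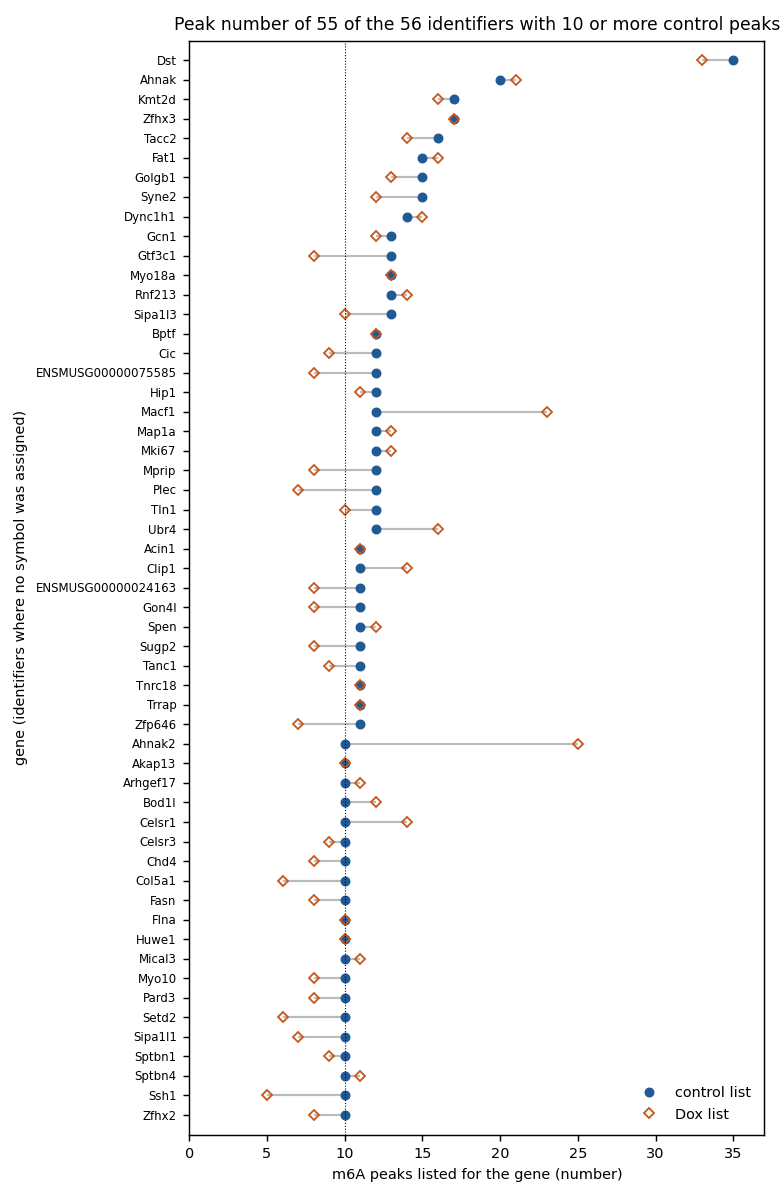
Number of peaks per gene in the control list (filled circles) and in the Dox list (open diamonds), 1 value per list, for 55 of the 56 identifiers, sorted by control number; the dotted line marks the threshold of 10 that chose the genes. Dst stands at 35 and 33, Ahnak2 runs from 10 to 25 and Macf1 from 12 to 23.

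Most peaks had a counterpart. Overlap meant a common stretch of 1 or more exonic nucleotides, strand respected, with any peak of the other list. Of the 681 control peaks 89 had no Dox peak (13.1%, exact 95% interval 10.6 to 15.8), where the share over all control peaks was 19.3%. Of the 647 Dox peaks 123 lacked a control peak (19.0%, 16.1 to 22.3), where the share over all Dox peaks was 29.1%. That share takes in identifiers with no control peak, which the rule leaves out, and over identifiers with a control peak it was 24.0%. The intervals cover counting error only. By control peak number, 26.7% of control peaks lacked a Dox peak where the gene had 1, 18.8% for 2 to 4 and 14.2% (13.3 to 15.2) for 5 to 9, the last within the interval for 10 or more. For Dox peaks without a control peak the shares were 34.2%, 22.3% and 17.6%, the last again within the interval for 10 or more and below its 19.0%. No count of fully matched genes was made outside the 56, so the next counts only describe these genes. In 16 of the 56 genes every control peak had a Dox peak, in 13 every Dox peak had a control peak, and in 8 both held. Myo18a (13 peaks in each list), the endocytic adaptor Hip1 (12 and 11), the transcriptional repressor Cic (12 and 9), the nucleosome remodeler Chd4 (10 and 8), Plec, Zfp646, Ahnak2 and Sptbn1 are those 8.

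Merging the peaks of both lists wherever they touched gave 685 sites on the 56 identifiers, of which 477 (69.6%) had peaks of both lists, 86 control peaks alone and 122 Dox peaks alone. Of the shared sites 374 paired 1 control peak with 1 Dox peak. At 71 sites a single Dox peak spanned several control peaks (163 in all), and at 17 a single control peak spanned several Dox peaks (43 in all). Of the 647 Dox peaks of these genes, 97 overlapped 2 or more control peaks, against 8.01% of Dox peaks elsewhere. Of the 681 control peaks, 42 (6.17%) overlapped 2 or more Dox peaks, against 4.89%. The peaks elsewhere include those of genes with few or no peaks to overlap, so higher shares here can follow from the rule.

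Exonic length under peaks gave another picture than the number of peaks. The control peaks covered 234618 nt and the Dox peaks 285377 nt, a ratio of 1.22, and 201610 nt lay under both. That is 85.9% of the control length and 70.6% of the Dox length. More nucleotides were covered in the Dox list in 43 of the 56 genes (76.8%) and fewer in 13. Of genes with 5 to 9 control peaks 75.4% had more, and of all identifiers with 2 or more control peaks 66.2%. In 23 of the 56 genes the Dox list held fewer peaks and yet more nucleotides, as in 317 of 905 with 5 to 9 control peaks. Fewer Dox peaks can follow from the rule, and so can this count. The median was 3606 nt per gene in the control list and 4356.5 nt in the Dox list. For genes with 5 to 9 control peaks the ratio was 1.19. Sums over separately called peaks move with how much was called, and the median peak width was 241 nt in the control and 301 nt in the Dox list for these genes (211 and 240 nt over all peaks).

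**Figure D3:**
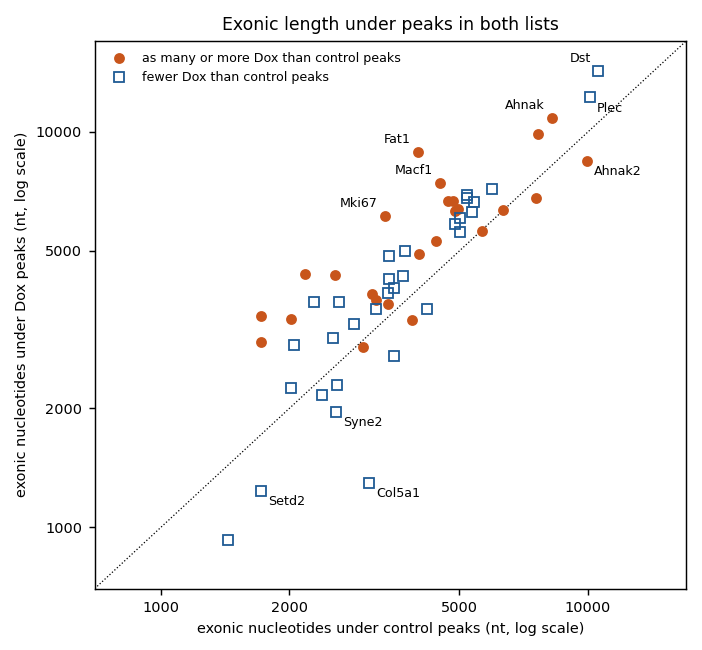
Exonic nucleotides under Dox peaks (vertical axis, log scale) against those under control peaks (horizontal, log scale) for the 56 identifiers, with the line of equal length dotted; filled circles have as many or more Dox peaks, open squares fewer. In 43 of the 56 the point lies above the line, while Col5a1, Setd2, Syne2 and Ahnak2 lie below it.

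The 12 cytoskeleton, adhesion and motor genes had 172 control and 180 Dox peaks. Of the control peaks 11 (6.40%) had no Dox peak, and 46 of the Dox peaks (25.6%) had no counterpart. Over all peaks the shares were 19.3% and 29.1%, and over the 56 they were 13.1% and 19.0%. Over identifiers with a control peak, 24.0% of Dox peaks were alone. In 11 of the 12 the Dox peaks covered more exonic nucleotides, 85994 nt against 61436 nt in all. So they did in 76.8% of the 56 and in 66.2% of identifiers with 2 or more control peaks. Dst had 35 control and 33 Dox peaks, of which 3 and 7 had no counterpart. Its strongest control peak had a fold of 8.13 at a log10 FDR of -162, and its strongest Dox peak overlapped it with 5.02 and -67.4. Ahnak, with 20 and 21 peaks, had 1 control peak and 6 Dox peaks alone. In Fat1 every one of 15 control peaks had a Dox peak, while 4 of its 16 Dox peaks were alone and the covered length was 4003 nt in the control and 8887 nt in the Dox list. Its strongest control peak (chr8:44951609-44952029) was 421 nt wide with a fold of 5.43, and the Dox peak over it was 570 nt wide with a fold of 7.04. Dync1h1 likewise had 14 control peaks, all with a Dox peak, and 5 of 15 Dox peaks alone. Flna (filamin A), with 10 peaks in each list, had 1 control and 3 Dox peaks alone and the lowest median control fold of the 56, 1.47. Map1a had 12 and 13 peaks, 1 and 4 of them alone. Celsr1, a cadherin of planar cell polarity, had 10 control peaks, each with a Dox peak, and 4 of 14 Dox peaks alone.

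Among the chromatin genes, Bptf, a subunit of the NURF remodeler, had 12 peaks in each list and the highest peak fold of the 56: a control peak at chr11:107111590-107131768 had a fold of 58.4 at a log10 FDR of -245, and the Dox peak over it 15.5 and -85.7. Trrap, a scaffold of histone acetyltransferase complexes, had 11 peaks in each list, of which 3 and 3 had no counterpart. In Kmt2d, 2 of 17 control and 4 of 16 Dox peaks were alone, all with log10 FDRs of -4.55 or weaker. Its peak at chr15:98844681-98845100 had a fold of 19.0 at a log10 FDR of -136 in the control list, and the overlapping Dox peak 7.03 and -48.6. Spen, a corepressor that takes part in X inactivation, had 11 control peaks, each with a Dox peak, and 12 Dox peaks, 1 alone.

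Setd2 itself, the gene targeted by the knockdown (ENSMUSG00000044791.16, chr9:110532500-110618633), entered at the threshold with 10 control peaks and had 6 Dox peaks. Covered length was 1717 nt in the control and 1235 nt in the Dox list, and 51.0% of the control length lay under Dox peaks. The 5 control peaks without counterpart had folds of 2.12, 3.57, 2.65, 3.87 and 6.64. Only 2 of the 10 control peaks had a log10 FDR of -5 or less, and both had a Dox peak. The Dox peak without counterpart (chr9:110573700-110573879, fold 6.24, log10 FDR -3.43) ended just upstream of the strongest control peak (chr9:110573909-110574239). Peaks need reads to be called, so fewer methylated molecules and fewer transcripts cannot be told apart here.

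Of the 3 ubiquitin ligase genes, Rnf213 had 13 and 14 peaks, Ubr4 12 and 16, and Huwe1 10 and 10. Together 3 of 35 control and 10 of 40 Dox peaks were alone, beside 19.3% and 29.1% over all peaks. Huwe1 had the strongest peak without counterpart of all the Dox peaks described here, at chrX:151890880-151891973, 421 nt wide with a fold of 2.36 at a log10 FDR of -39.5. It also had a control peak alone, at chrX:151872506-151872776, with a fold of 11.1 at a log10 FDR of -11.8. Mki67, which codes for the proliferation antigen Ki-67, had 12 control peaks, each with a Dox peak, and 4 of 13 Dox peaks alone. The covered length in Mki67 was 3342 nt in the control and 6129 nt in the Dox list.

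Some genes with a large difference in number held peaks that were joined in a list and separate in the other. In Plec (plectin, a crosslinker of intermediate filaments) 12 control and 7 Dox peaks all had counterparts, and 100% of the 10088 control nucleotides lay under Dox peaks. Its widest Dox peak, chr15:76175532-76186214, covered 7618 exonic nt with a fold of 9.86 and spanned 4 control peaks, among them one of 5368 nt with a fold of 31.4. Zfp646, with 11 and 7 peaks, had all of them matched too: its first 3 control peaks lay under 1 Dox peak of 1138 nt, and 96.7% of the control length was covered in the Dox list. In Gtf3c1, 8 Dox peaks met 11 of 13 control peaks, and covered length was 3519 and 4023 nt. The cofilin phosphatase gene Ssh1 had 10 control peaks, 3 of them alone, and 5 Dox peaks, of which one 1617 nt wide spanned 3 control peaks.

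Ahnak2 showed the opposite. Its 10 control and 25 Dox peaks all overlapped, but the Dox peaks covered fewer nucleotides, 8446 against 9944 nt. The control list had 4 wide peaks side by side from chr12:112775812 to 112784803, of 1705, 3287, 1942 and 1703 nt, with folds of 48.0, 46.7, 55.4 and 34.4 and log10 FDRs of -11.6, -11.0, -13.3 and -11.2. The 3287-nt peak overlapped 7 Dox peaks and the 1705-nt peak 5. Macf1, a spectraplakin like Dst, differed otherwise: 12 of its 23 Dox peaks had no control peak, and 7 of those lay side by side from chr4:123471942 to 123476050. Those 7 had folds of 1.91 to 3.65 and log10 FDRs of -1.64 to -5.12. The strongest of the 12 had a fold of 2.85 at a log10 FDR of -17.6. The covered length of Macf1 was 4511 nt in the control and 7428 nt in the Dox list.

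**Figure D4:**
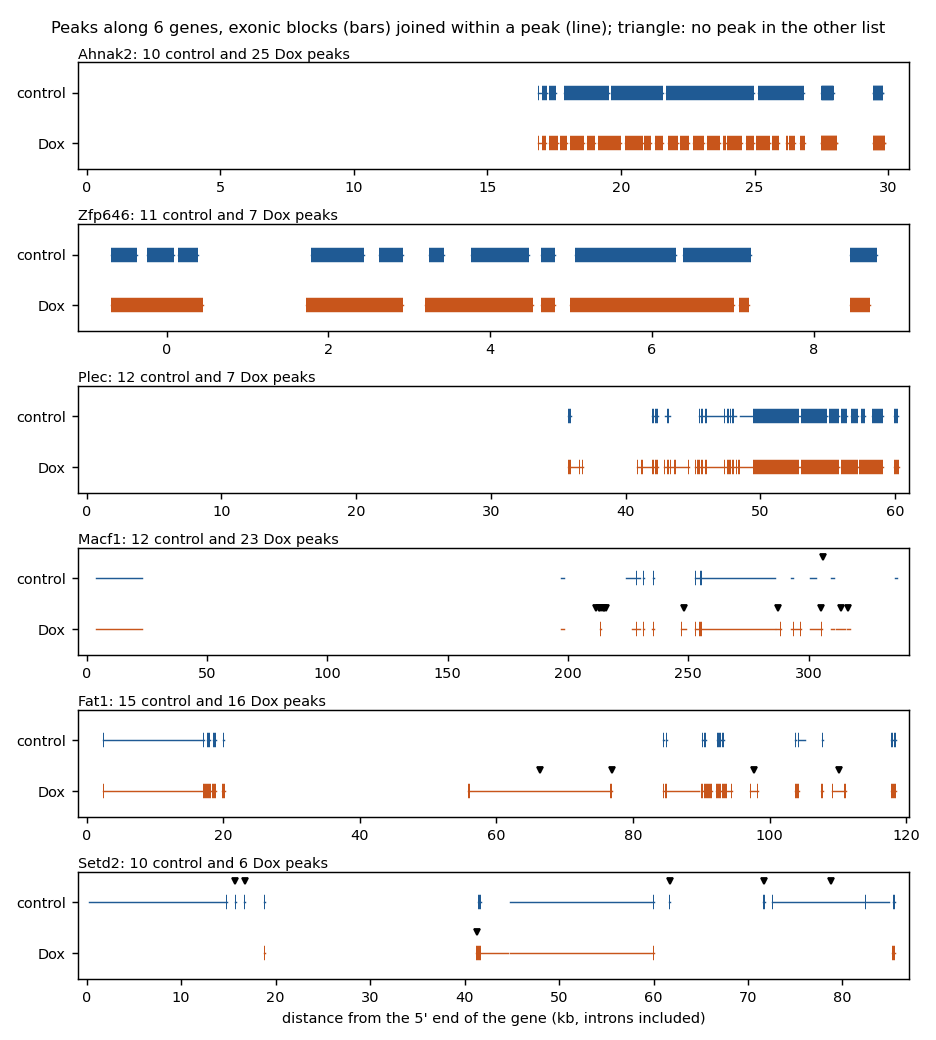
Peaks of 6 genes by distance from the 5′ end of the gene in kb (horizontal axis, introns included), control above Dox; bars are exonic blocks, thin lines join the blocks of a peak, and triangles mark peaks without a counterpart. Plec and Zfp646 show several control peaks under wide Dox peaks, Ahnak2 wide control peaks over many Dox peaks, and Macf1 a run of Dox peaks alone near 210 kb.

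The peaks without counterpart were mostly weak. Of the 89 control peaks 69 had a log10 FDR above -5, as had 94 of the 123 Dox peaks. Among control peaks above -5, 32.7% (26.4 to 39.5) had no Dox peak, against 32.3% of such peaks on genes with 5 to 9 control peaks and 33.1% on all others with peaks in both lists. From -10 to -5 the share was 9.73% (4.96 to 16.8), against 14.9% and 15.6%, and from -20 to -10 it was 7.41%, against 7.64% and 7.25%. At -50 or less, 0 of 140 had none, which allows a share of up to 2.60% (exact 95% interval), against 0.177% and 0.354%. Among Dox peaks above -5, 36.4% (30.6 to 42.6) had no control peak, against 38.4% and 45.4%, and at -50 or less 0 of 100, which allows up to 3.62%, against 0.120% and 0.897%. Within these classes of strength the genes with 10 or more control peaks thus had shares whose intervals held those of genes with 5 to 9, and a rule that asks for many control peaks can itself lower the share of Dox peaks alone. Peaks of a gene share their transcript, so they are not independent and the intervals are too narrow to that extent.

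**Figure D5:**
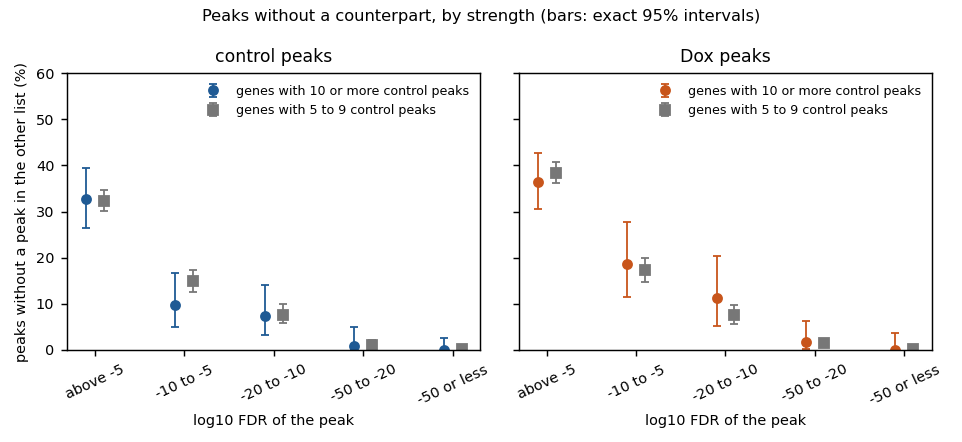
Percentage of peaks without a peak in the other list (vertical axis) by class of log10 FDR (horizontal), for control peaks (left) and Dox peaks (right), with exact 95% intervals. The genes with 10 or more control peaks (circles) lie at 32.7% of control and 36.4% of Dox peaks in the weakest class, close to the genes with 5 to 9 (squares) at 32.3% and 38.4%, and both are near 0 in the strongest.

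A few stronger control peaks had no Dox peak. The strongest was in Gtf3c1, chr7:125648444-125648684, with a fold of 3.30 at a log10 FDR of -22.0, between neighbours that both had a Dox peak. Fasn had 4 of 10 control peaks alone, at folds of 1.37, 1.33, 7.79 and 12.3 and log10 FDRs of -19.9, -6.98, -3.41 and -3.41. Trrap had a control peak alone with a fold of 2.45 at a log10 FDR of -16.3. The highest shares of control peaks without counterpart among named genes were 5 of 10 in Setd2, 46.7% in Syne2 (7 of 15), 40.0% in Fasn, 36.4% in the splicing-related Sugp2 (4 of 11) and 33.3% in Mprip (4 of 12), which targets myosin phosphatase. In Syne2, 6 of the 7 had log10 FDRs of -1.93 to -2.81 and the seventh -5.95. In Col5a1 3 of 10 control peaks were alone, one of them at the 5′ end (chr2:27886455-27886725, fold 27.1, log10 FDR -5.72), and 36.4% of the control length lay under Dox peaks, the lowest of the 56. On the Dox side Akap13, an anchoring protein of protein kinase A, had 3 of 10 control and 4 of 10 Dox peaks alone, and Bod1l 1 of 10 and 4 of 12. Clip1, a microtubule plus-end protein, had 11 control peaks, all matched, and 2 of 14 Dox peaks alone.

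Listed folds were lower in the Dox list at the median. The median was 4.26 for the control peaks (quartiles 2.77 and 7.59) and 3.67 for the Dox peaks (2.48 and 5.56). Of the 56 genes, 40 had the lower median in the Dox list, a count not made for other genes. Over all peaks the medians were 4.62 and 3.51. In the 370 matched peaks that overlapped exactly 1 peak of the other list and were overlapped by no other, the Dox fold was a median of 0.796 times the control fold and lower in 257 (69.5%), against 0.815 and 65.8% of 15987 such matches elsewhere. How the authors scaled IP to input is not stated, so folds are compared between lists only as listed.

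The strongest control peak of a gene, by lowest p, had a Dox peak in all 56, against 98.0% of genes with 5 to 9 control peaks and 91.0% of those with 2 to 4. In 33 of the 56 (58.9%, 45.0 to 71.9) the strongest Dox peak overlapped the strongest control peak, against 67.1% and 70.3%. With more peaks there are more candidates for the strongest, so a lower share can follow from the number. The strongest of many peaks can also be stronger, and few strong peaks of any class were alone. The match in all 56 can therefore follow from the number too.

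The threshold of 10 has close neighbours on both sides. The 21 identifiers with exactly 10 control peaks had a median of 9 Dox peaks (5 to 25), a median gene length of 91.3 kb and 16.2% of control peaks alone. The 36 with 9, just outside, had a median of 8 Dox peaks (5 to 16), 62.3 kb and 13.3%. Of the 56, 34 also had 10 or more Dox peaks and 22 did not, while 28 others reached 10 in the Dox list alone. Among those 28, named after their values were seen, were Cenpf (9 control and 16 Dox peaks), Akap9 (3 and 15), Tpr (8 and 14) and Kmt2a (8 and 12). The number of rows also depends on overlapping rows within a list. ENSMUSG00000075585.3, which lies on the plus strand within Pdgfa, a gene of the minus strand, and so received no symbol, had 12 control rows that merge to 6, and Ahnak2 had 10 that merge to 8. Counted that way, 54 of the 56 reach the threshold.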

How the data were processed

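m6A and input RNA of control and Dox cells were sequenced in 2 replicates each. Per the submitters' processing notes, the build was mm10, with TopHat2 2.1.1 and FastQC 0.11.5. The names of the deposited tables point to exomePeak as the caller, whose version and settings are not given in the sources used. Per the file headers, the deposited tables give for each peak a fold enrichment (a ratio of IP over input), a p-value, and the log10 of p and of the FDR. Both replicates are pooled in every deposited value, so depth is unknown and no test was made. The authors' shorter lists equal the table peaks whose p does not exceed 1e-05 and whose fold reaches 2.

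Overlap, merging and covered length were computed over exonic blocks with Python 3.11.15, numpy 2.4.6, pandas 2.3.3 and scipy 1.17.1 (figures: matplotlib 3.10.9), and tested on simulated data (300 peaks per list, 0 errors). Coordinates are 1-based. A symbol was given where a protein-coding RefSeq gene (GRCm38.p6) held at least 50% of an identifier's peak midpoints without a tie (10675 identifiers, 81.4%). It was left out where the strands differ, a choice made after seeing the data; strand was checked for 48 of the 54. Genes were named by rule: Setd2, the 15 with most control peaks, the 6 with the largest excess in either direction, the 5 longest and 5 shortest, the 5 with the highest and 5 with the lowest share of control peaks alone, and up to 6 members of each of 11 gene lists. Other genes were named after their values were seen. The identifiers, gene lists and rules were chosen with earlier results of these data known. Values of 1 gene among the 56 are not reported here.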

Additional observations from a re-analysis of the deposited data

How the results depend on the processing

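Under 16 other settings, 48 of 95 recomputed values stayed close to the reported value and 47 did not, where close means within 1.5 times for a count and within the 95% interval of the reported value for a percentage or median. With a minimum of 8, 12 or 15 control peaks there were 154, 25 or 8 identifiers, with 1501, 361 or 150 control and 1374, 344 or 142 Dox peaks, and 91, 14 or 5 had fewer Dox peaks. At 15, 22.5% of Dox peaks were alone, the median control fold was 3.72, gene length 167 kb and spacing 1.22 kb, and 0% and 2.67% of control peaks lay at the 5′ and 3′ ends. With the minimum of 10 applied to the Dox list, 9 identifiers had fewer Dox peaks, 8.76% of control and 30.4% of Dox peaks were alone, and the median Dox fold was 3.48. The smaller number of genes with fewer peaks can follow from that rule's own choice.

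The limits on FDR, p and fold were put on both lists, so a peak also counted as alone where its counterpart fell short of the limit. The shares alone can therefore rise under a limit, unlike the shares by strength given above, where the other list was whole. With peaks above a log10 FDR of -5 left out, 20 of the 56 had 10 or more control peaks, with 389 Dox peaks. Of the control and Dox peaks kept, 18.9% and 15.9% were alone. Median folds were 4.95 and 4.21 and the spacing was 3.31 kb. Limited to the authors' shorter lists, there were 19, with 394 Dox peaks, 19.3% of control peaks alone, median folds of 5.17 and 4.34 and a spacing of 3.31 kb. At a fold of at least 4, 7 had 10 or more control peaks, with 369 control and 293 Dox peaks, 33.1% of control peaks alone, median folds of 7.13 and 5.77 and a spacing of 3.45 kb. Gaps in place of midpoints gave 0.929 kb. Windows of 300 and 500 nt gave 1.68% at the 5′ and 1.68% at the 3′ end, and 1000 and 2000 nt gave 8.70% at the 3′ end. Counting exonic nucleotides in place of peaks, an alternative chosen after seeing the data, left 13 of the 56 lower in the Dox list.

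No paired analysis was possible because each list pools both replicates of its condition, and leaving out a replicate could not be done for the same reason. Without depth, a weak peak missing from a list cannot be told apart from a peak that had too few reads there.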
